A study of Mus musculus with 59 samples.

Results

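10 genes that mark astrocytes, or that rise when astrocytes become reactive, were followed across the whole prefrontal cortex transcriptome of young mice. They were chosen by symbol, with earlier results of these data known: Aqp4, Slc14a1 and Kcnj10 (channels and transporters of the astrocyte surface), Gja1 and Gjb6 (gap junction proteins), Slc1a2 and Slc1a3 (glutamate transporters), Aldoc (a glycolytic enzyme), and Gfap and Serpina3n (genes used as signs of reactivity). All 10 were found among the 18088 genes of the deposited table, and all 10 passed the filter on low values that left 17875 genes for testing.

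Mice of the C57BL/6J strain were either heterozygous for Ash1l, a histone methyltransferase gene (HT), or wild type (WT). Nursing pups of both sexes received lithium, a mood stabiliser, fluoxetine, a serotonin reuptake inhibitor, or vehicle in the milk of their mothers between postnatal days 3 and 24, and the prefrontal cortex was taken at postnatal day 25. The 12 groups were HT lithium females (4 libraries), HT lithium males, WT lithium females, WT lithium males, HT fluoxetine females, HT fluoxetine males, WT fluoxetine females, WT fluoxetine males, HT vehicle females, HT vehicle males, WT vehicle females and WT vehicle males (5 libraries each), so that 19 lithium, 20 fluoxetine and 20 vehicle libraries were compared. The kind of Ash1l allele is not given in the sources used here. Litters and dams are not labelled, so an effect of dam or litter and an effect of the drug cannot be told apart, and p-values measure the spread between these libraries.

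Library totals ran from 24470332 to 36323070 reads (median 27979197). Values are normalised counts, the reads of a gene divided by a size factor of its library. Ash1l itself had 3641 to 4382 normalised counts in the 29 HT libraries (median 4021), and 4703 to 6218 in 29 of the 30 WT libraries (median 5031). The library labelled WT vehicle female replicate 3 had 3557, inside the HT side, and it was also high in Gfap and low in Slc1a2. Together with WT vehicle male replicate 2 and HT fluoxetine male replicate 4, which stood apart in several of the 10 genes, it was left out in further fits. Calls that changed there are named with the results or counted at the end. No pair of libraries held identical values.

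Astrocytes buffer potassium and water, take up glutamate and feed neurons, and they touch blood vessels with endfeet. The water channel made from Aqp4 lets water cross the endfoot membrane, the inward rectifier encoded by Kcnj10 carries potassium, and Slc14a1 encodes a urea transporter. Gja1 and Gjb6 encode both main connexins that join astrocytes into a network. Slc1a2 and Slc1a3 encode the transporters that clear most synaptic glutamate, Aldoc encodes the brain form of aldolase, Gfap an intermediate filament protein, and Serpina3n a secreted serine protease inhibitor that is among the genes most strongly induced in reactive astrocytes of mice.

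RefSeq promoter windows were matched by symbol for 8 of them, in 9 windows. Those of 2 gene pairs whose messages moved in opposite directions under lithium are shown because they are the DNA nearest to these messages: both connexin genes, then Serpina3n and Slc1a3. Each is the 250 bases before the RefSeq start, 5′ to 3′ on the gene's own strand, from GRCm38.p6, and overlaps no GENCODE exon: Gjb6 at chr14:57133612-57133861 on the minus strand, Gja1 at chr10:56377050-56377299 on the plus strand, Serpina3n at chr12:104406458-104406707 on the plus strand and Slc1a3 at chr15:8710808-8711057 on the minus strand. Capitals in Slc1a3 mark its motif matches.
Gjb6: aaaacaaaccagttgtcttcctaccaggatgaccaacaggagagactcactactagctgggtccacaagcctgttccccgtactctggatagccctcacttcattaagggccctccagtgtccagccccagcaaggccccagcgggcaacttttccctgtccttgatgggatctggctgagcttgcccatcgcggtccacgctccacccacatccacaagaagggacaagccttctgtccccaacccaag
Gja1: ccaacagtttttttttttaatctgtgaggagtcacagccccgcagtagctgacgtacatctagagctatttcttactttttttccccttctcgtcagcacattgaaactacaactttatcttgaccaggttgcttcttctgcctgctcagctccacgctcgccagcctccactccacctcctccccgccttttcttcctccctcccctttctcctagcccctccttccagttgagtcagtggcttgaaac
Serpina3n: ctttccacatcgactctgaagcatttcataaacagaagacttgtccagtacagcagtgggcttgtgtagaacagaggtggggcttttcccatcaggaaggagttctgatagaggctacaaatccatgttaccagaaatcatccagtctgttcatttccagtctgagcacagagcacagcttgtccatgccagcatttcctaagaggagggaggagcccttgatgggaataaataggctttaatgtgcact
Slc1a3: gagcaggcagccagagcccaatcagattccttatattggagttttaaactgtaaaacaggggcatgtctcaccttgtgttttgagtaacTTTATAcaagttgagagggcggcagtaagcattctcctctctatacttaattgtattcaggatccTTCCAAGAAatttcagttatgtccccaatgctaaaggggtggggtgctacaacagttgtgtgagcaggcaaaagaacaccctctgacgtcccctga

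The windows were searched on both strands for 6 motifs, of which no match overlapped another in these windows. The STAT motif TTCNNNGAA lies 96 to 88 bases before the Slc1a3 start, and TATAAA, on the other strand, 161 to 156 bases before it. The windows of Gjb6, Gja1 and Serpina3n hold none of the 6. Among the windows not shown, an Aldoc window holds TTCNNNGAA 124 to 116 and 83 to 75 bases before its start. That of Slc1a2 holds ATCAAAG 207 to 201 bases before its start, and both of these windows overlap GENCODE exons. Among 32817 RefSeq windows of the same length, 7.01% hold TTCNNNGAA and 12.4% TATAAA, while the other 4 were rarer: ATCAAAG (TCF/LEF) in 3.21%, TGACGTCA (CRE) in 1.55%, the NFI palindrome (TTGGC, any 5 bases, GCCAA) in 0.0366% and the glucocorticoid response element (AGAACA, any 3 bases, TGTTCT) in 0.00914%. G and C make up 56.8% of the Gjb6 window. A match describes these letters and nothing about a factor.

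On the GRCm38 build, with GENCODE M21 gene bounds, the genes lie at chr18:15389496-15410982 (Aqp4, minus strand), chr18:78100091-78142119 (Slc14a1, minus), chr1:172341210-172374085 (Kcnj10, plus), chr10:56377330-56402513 (Gja1, plus), chr14:57123303-57133611 (Gjb6, minus), chr2:102658659-102790784 (Slc1a2, plus), chr15:8634124-8710764 (Slc1a3, minus), chr11:78322968-78327781 (Aldoc, plus), chr11:102887336-102900912 (Gfap, minus) and chr12:104406729-104414329 (Serpina3n, plus). All 10 are protein-coding.

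The 10 messages differ widely in abundance. Per kilobase of exon, the mean normalised count in the 20 vehicle libraries was 7218 ± 1287 (SD) for Slc1a2, above 99.5% of all genes, 5371 ± 610.3 for Aldoc and 2457 ± 252 for Slc1a3. Kcnj10 (1012 ± 186), Gfap (919 ± 273), Aqp4 (722 ± 80.7), Gja1 (569 ± 47.2) and Gjb6 (494 ± 59) came next, with Gjb6, the lowest of these 5, above 84.7% of genes; Kcnj10 and Gfap differed by less than their SDs. Serpina3n (89.8 ± 16.3) and Slc14a1 (70.2 ± 7.30) were near the middle of all genes, above 48.6% and 44.0% of them. The plot of normalised counts by library shows all 59 values of each gene.

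**Figure D1:**
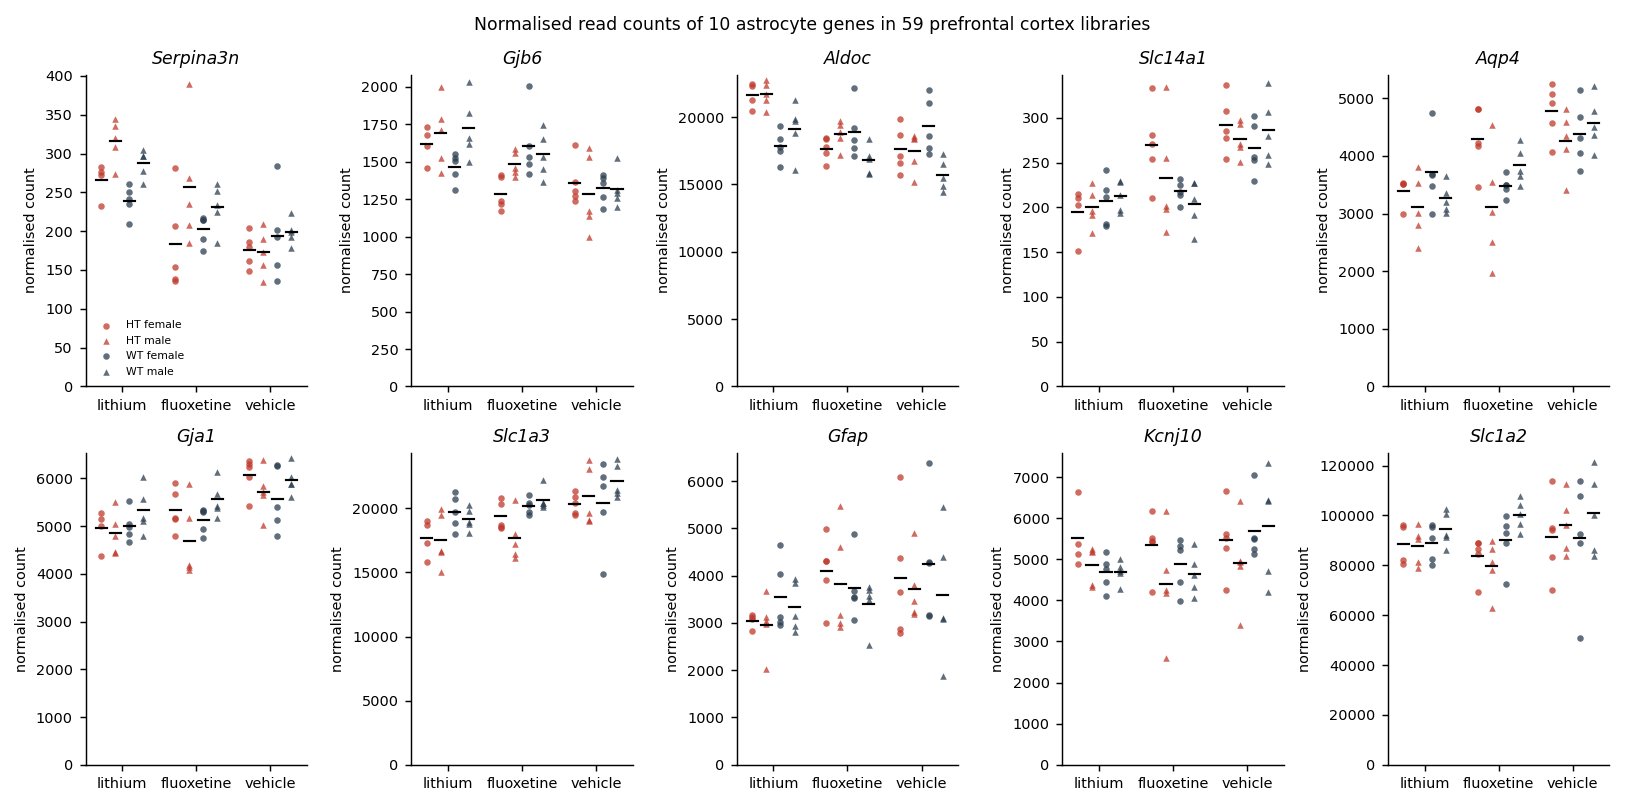
Normalised read counts (vertical axes, each from 0) of the 10 genes in every library, with lithium, fluoxetine and vehicle from left to right; red is HT, dark blue WT, circles are females, triangles males, and black bars are group means. Of the 3 drug groups, lithium has the highest mean of Serpina3n and the lowest of Slc14a1, with Serpina3n between 209 and 345 under lithium and between 135 and 284 under vehicle.

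Lithium moved the 10 genes in opposite directions. Serpina3n, Gjb6 and Aldoc rose, by log2 fold changes of 0.59, 0.30 and 0.20, while Slc14a1, Aqp4, Gja1 and Slc1a3 fell, with values of -0.46, -0.42, -0.21 and -0.18. Gfap, Kcnj10 and Slc1a2 did not pass the test. The log2 fold change is taken here on log2(normalised count + 1), averages the 4 combinations of genotype and sex (strata) with equal weight, and was called when limma's p-value, adjusted over all 17875 genes by the Benjamini-Hochberg method, was under 0.05. By that rule 3 of the 10 genes were higher and 4 lower, against 7.39% and 5.74% of all tested genes. Because the 10 were chosen with earlier results of these data known, these shares describe the set and test no excess over all genes. The median of the 10 was -0.15, beside 0.0039 over all genes. In tissue, fewer astrocytes and less message per astrocyte cannot be told apart.

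Serpina3n moved most. Its normalised counts in the 19 lithium libraries had a lowest, median and highest value of 209, 276 and 345, against 135, 188 and 284 in the 20 vehicle libraries. The means were 278 ± 36.1 under lithium and 185 ± 33.7 under vehicle (SD), a change of 0.59 ± 0.078 (SE), or 1.5-fold (limma, adjusted p = 7.37e-07). All 19 lithium libraries stood above the vehicle mean of their own genotype and sex. In HT males the 5 lithium libraries held 273, 345, 309, 320 and 336, and the 5 vehicle libraries 190, 135, 173, 157 and 209. Lithium and vehicle libraries did not overlap there. In WT females lithium libraries held 209, 250, 235, 241 and 261, against 157, 136, 284, 193 and 202 in vehicle libraries, which overlapped through the library labelled WT vehicle female replicate 3. The 9 other genes of the Serpina3 cluster on which near-identical reads could fall had no row among those used here, and how shared reads were assigned is not given, so the level of Serpina3n is uncertain to that extent.

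Gfap, the classical marker of reactive astrocytes, did not follow Serpina3n. It averaged 3236 ± 571 normalised counts under lithium and 3878 ± 1149.6 under vehicle (SD, n = 19 and 20), and its change of -0.23 ± 0.11 (SE) was not called (limma, adjusted p = 0.168; 95% interval -0.44 to -0.012). Vehicle libraries ran from 1869 to 6374 and enclosed every lithium value, which ran from 2036 to 4648. The vehicle extremes were WT vehicle male replicate 2 at the low end and the library labelled WT vehicle female replicate 3 at the high end.

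Both endfoot transport genes that were called fell. Slc14a1 had a lowest, median and highest value of 151, 210.1 and 242 normalised counts in the lithium libraries, against 230.1, 279 and 339 in the vehicle libraries, and all 19 lithium libraries lay below the vehicle mean of their stratum. Its means were 204 ± 22.6 under lithium and 281 ± 29.2 under vehicle, a change of -0.46 ± 0.062 (SE) (limma, adjusted p = 8.18e-07). In 3 of the 4 strata the groups did not overlap: HT lithium females held 215, 203, 151 and 210, against 278, 308, 254, 285 and 337 in HT vehicle females, and WT females were the exception. Aqp4 had 2401, 3484 and 4744 in the lithium libraries, against 3407, 4536 and 5248 in the vehicle libraries, with a mean ± SD of 3368 ± 492 under lithium and 4498 ± 503 under vehicle. This was a change of -0.42 ± 0.066 (SE), to 0.747 of the vehicle level (limma, adjusted p = 1.53e-05), and 18 of 19 lithium libraries lay below the vehicle mean of their stratum. In WT males, for example, the lithium libraries held 3073, 3208, 3016, 3356 and 3657, all below the 4508, 4774, 5209, 4023 and 4356 of the vehicle libraries. Kcnj10, the potassium channel of the same membrane, averaged 4907 ± 562 under lithium and 5470 ± 1007 under vehicle, and its change of -0.13 ± 0.076 (SE) was not called (limma, adjusted p = 0.254; 95% interval -0.28 to 0.015).

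The connexin genes parted. Gjb6 had a lowest, median and highest value of 1315, 1607 and 2031 normalised counts in lithium libraries, against 995, 1299.6 and 1614 in vehicle libraries, and 18 of 19 lithium libraries lay above the vehicle mean of their stratum. It rose by 0.30 ± 0.050 (SE) (limma, adjusted p = 3.63e-05), with means of 1625 ± 191 under lithium and 1321 ± 158 under vehicle. Gja1 went the other way, with 4371, 5037 and 6025 in lithium libraries, against 4799.6, 5881 and 6419 in vehicle libraries, and 18 of 19 below their vehicle mean. Its change was -0.21 ± 0.042 (SE) (limma, adjusted p = 0.000321), with means of 5039 ± 425 under lithium and 5834 ± 484 under vehicle. HT females showed the fall without overlap: the lithium libraries held 5156, 5003, 4371 and 5283, the vehicle libraries 5420, 6235, 6367, 6025 and 6306. The ratio of Gjb6 to Gja1 normalised counts within a library was 0.324 ± 0.0401 under lithium, 0.290 ± 0.0479 under fluoxetine and 0.227 ± 0.0276 under vehicle (SD, n = 19, 20 and 20). The 4 lithium group means of this ratio lay between 0.293 and 0.351, and the 4 vehicle group means between 0.222 and 0.239. These ratios are a description, since both genes were already tested.

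**Figure D2:**
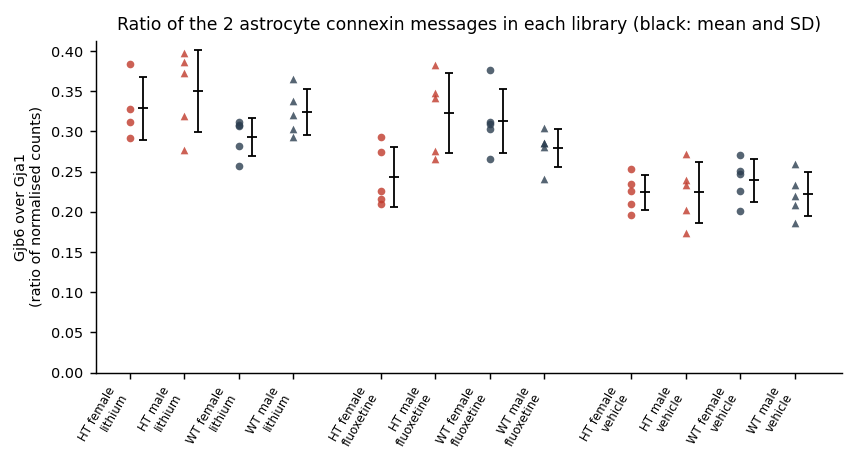
Ratio of Gjb6 to Gja1 normalised counts (vertical axis, no unit) in each library, by group; points are libraries (red HT, dark blue WT, circles females, triangles males) and black bars are the mean ± SD. Lithium libraries run from 0.256 to 0.397, above most vehicle libraries, which run from 0.174 to 0.272.

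Of the glutamate transporter genes, Slc1a3 fell and Slc1a2 did not pass the test. Slc1a3 had a lowest, median and highest value of 15026, 18871 and 21249 normalised counts in lithium libraries, against 14864, 21032 and 23885 in vehicle libraries, and 17 of 19 lithium libraries lay below the vehicle mean of their stratum. Its change was -0.18 ± 0.042 (SE) (limma, adjusted p = 0.00262). The lowest vehicle value came from the library labelled WT vehicle female replicate 3, and the other 4 WT vehicle females held 22467, 23444, 21761 and 19730. Slc1a2, the more abundant transporter, averaged 90067 ± 7328 under lithium and 94794 ± 16902 under vehicle, with a change of -0.055 ± 0.066 (SE) (limma, adjusted p = 0.64; 95% interval -0.18 to 0.074). The vehicle libraries spread from 50817 to 121543, wider than the lithium libraries at 79072 to 102384. Aldoc, the glycolytic gene, rose by 0.20 ± 0.037 (SE) (limma, adjusted p = 0.000211), with 16040.5, 20343 and 22746 in lithium libraries, against 14455, 17247 and 22023 in vehicle libraries. 15 of 19 lithium libraries lay above their vehicle mean, while in WT females the lithium libraries held 16324, 17743, 17468, 19333 and 18358, against 18569, 21019, 22023, 17682 and 17260 in vehicle libraries, with a change of -0.11 that was not called. The same 7 genes were called in the same direction under each of 10 other settings and without each of the 59 libraries in turn.

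**Figure D3:**
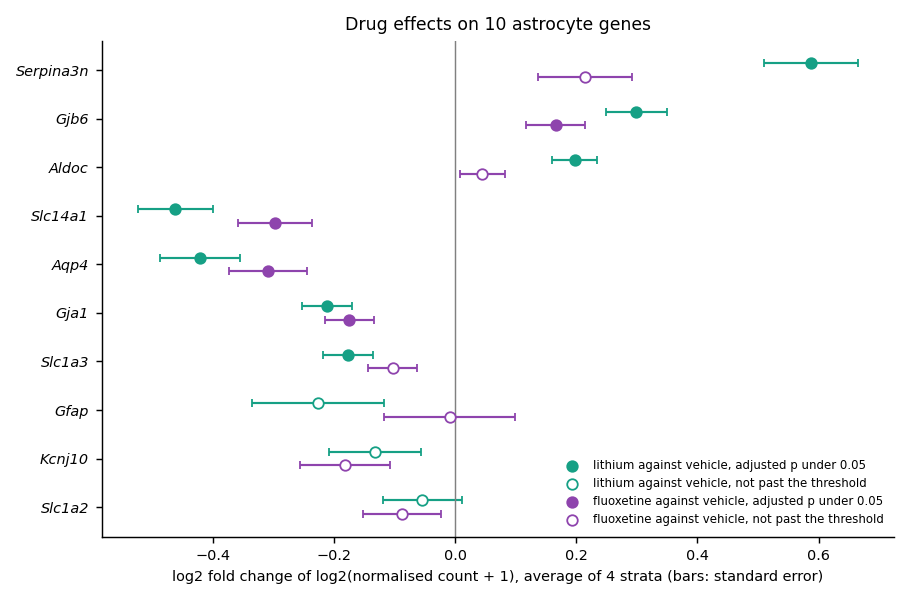
Log2 fold change on log2(normalised count + 1), averaged over the 4 strata (horizontal axis), of each gene for lithium against vehicle (green) and fluoxetine against vehicle (purple); bars are standard errors and filled points have an adjusted p under 0.05 (limma). Lithium spans -0.46 (Slc14a1) to 0.59 (Serpina3n) and fluoxetine -0.31 (Aqp4) to 0.21 (Serpina3n); both contrasts use the same vehicle libraries.

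Within single strata, with 4 or 5 lithium and 5 vehicle libraries, limma made calls in HT mice. In HT females 2 genes were higher and 3 lower, against 1.82% and 1.16% of all genes: Serpina3n 0.60 and Aldoc 0.30, then Slc14a1 -0.59, Aqp4 -0.49 and Gja1 -0.29 (limma, adjusted p between 0.0137 and 0.0472). In HT males 3 were higher and 0 lower, against 0.14% and 0.112%: Serpina3n 0.88 ± 0.15 (SE), Gjb6 0.41 and Aldoc 0.31 (limma, adjusted p = 0.00231, 0.0493 and 0.0386). Aqp4 (-0.46) and Slc14a1 (-0.47) did not reach the threshold on all libraries in limma or edgeR there and did in DESeq2. Without WT vehicle male replicate 2 and the library labelled WT vehicle female replicate 3, limma called Slc1a3 and Slc14a1 lower in HT males. Without these and HT fluoxetine male replicate 4, it called Slc1a3, Aqp4 and Slc14a1 lower there. The Gjb6 call in HT males was lost with edgeR, with the replicate block, with the GC and length trend removed and with only the libraries compared. In that last setting the Aldoc call in HT males was lost too, and Serpina3n alone was called. All 5 HT female calls were lost with the GC and length trend removed, where 4 higher and 7 lower genes of all were called, in place of 325 and 207, while Slc14a1 in HT males and Gja1 in WT females were then called lower. edgeR did not call Gja1 in HT females, and with only the libraries compared Gja1 and Aldoc were not called there. In WT males limma and edgeR called 0 (7 had an unadjusted limma p under 0.05, and the smallest adjusted limma p was 0.0502). With a pseudocount of 10, limma called Gjb6 higher there. DESeq2 called 5 in WT males (Serpina3n, Gjb6 and Aldoc higher, Aqp4 and Slc14a1 lower). Their limma values were 0.53, 0.39, 0.28, -0.49 and -0.42 in that order. In WT females limma, edgeR and DESeq2 called 0, with 2 at an unadjusted p under 0.05 in limma: Serpina3n at 0.34 and Slc14a1 at -0.37. Of all genes, 0.476% were called in WT males and 2.45% in WT females.

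Counted by overlap of libraries, 6 genes separated lithium from vehicle fully in HT females (Aqp4, Gja1, Slc1a3 and Slc14a1 lower, Aldoc and Serpina3n higher), against 7.52% of all genes. In WT males it was 4 (Aqp4, Slc1a3 and Slc14a1 lower, Serpina3n higher) against 2.1%, in HT males 3 (Slc14a1 lower, Aldoc and Serpina3n higher) against 3.44%, and in WT females 0 against 6.25%. Whether the lithium change differed between genotypes or sexes was tested as an interaction, and limma called 0 of the 10 genes for either, against 0% of all genes, with 1 each at an unadjusted p under 0.05. Aldoc had the smallest p in both: its lithium change was higher in HT than in WT mice by 0.22 (95% interval 0.075 to 0.37; limma, adjusted p = 0.419) and differed by -0.20, females minus males, (adjusted p = 0.765). For Serpina3n the HT minus WT difference was 0.30 (95% interval -0.0055 to 0.61; adjusted p = 0.537). edgeR and DESeq2 called 0 interactions as well, so the calls seen in HT strata and missing in WT strata are not shown to differ. The single-stratum calls rested on few libraries. Summed over strata there were 5 higher calls, on 3 genes, and 3 lower calls. There were 2 or 3 higher calls without any one of HT lithium female replicates 1, 2, 3 and 4, HT vehicle female replicates 1, 2 and 4, HT lithium male replicates 2 and 3 or HT vehicle male replicates 1 and 2. There were 0 or 1 lower calls without HT lithium female replicate 1, 2 or 3 or HT vehicle female replicate 2, 4 or 5, and without HT fluoxetine male replicate 2 there were 5.

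**Figure D4:**
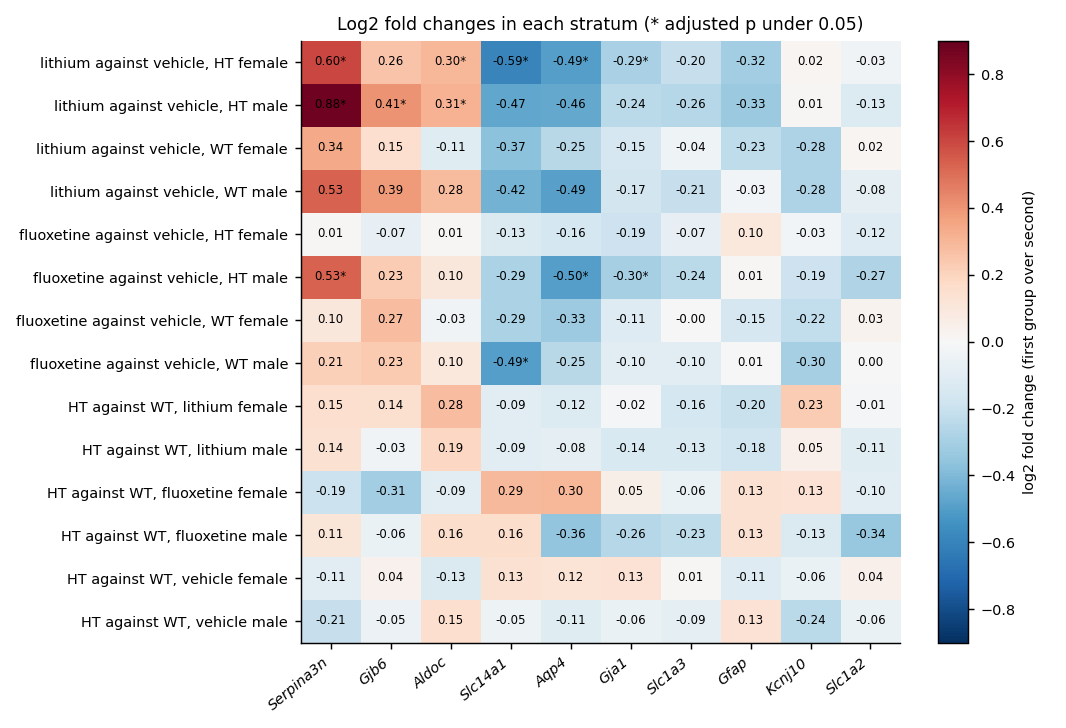
Log2 fold changes on log2(normalised count + 1) of the 10 genes (columns) in each stratum (lines): lithium against vehicle, fluoxetine against vehicle, and HT against WT; red is higher and blue lower in the group named at the start of each label, and an asterisk marks an adjusted p under 0.05 (limma). Serpina3n is positive and Slc14a1 and Aqp4 negative in all 4 lithium strata, and no asterisk falls in the 6 HT against WT lines.

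Across the 12 groups the order of means followed the drug for some genes and not for others. Serpina3n was highest in HT lithium males at 316 ± 28 normalised counts, then WT lithium males at 288 ± 18, HT lithium females at 266 ± 21.9 and HT fluoxetine males at 257 ± 79.9. It was lowest in HT vehicle males at 173 ± 28.7 and HT vehicle females at 176 ± 21.5 (SD, n = 4 or 5). The fifth-highest group, WT lithium females at 239 ± 19.5, differed from HT fluoxetine males by less than their spread. The 4 vehicle groups took the first 3 and the fifth place for Aqp4, the first 4 for Gja1, and the first 3 and the fifth for Slc14a1, and these neighbours overlapped within 1 SD. The lowest Aqp4 mean was 3112 ± 560.4 in HT lithium males and the highest 4774 ± 465 in HT vehicle females. For Slc14a1 they were 195 ± 29.6 in HT lithium females and 293 ± 31.4 in HT vehicle females. The lowest Gja1 mean was that of HT fluoxetine males, 4695 ± 799.

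Aldoc was highest in HT lithium mice. HT lithium males averaged 21698 ± 947 and HT lithium females 21611 ± 959, against 15710.2 ± 1159.9 in WT vehicle males, but WT vehicle females came next at 19311 ± 2102. Gjb6 was highest in WT lithium males (1726 ± 207) and lowest in HT vehicle males (1287 ± 260.2). For Slc1a3, HT lithium males were lowest at 17534 ± 2089 and WT vehicle males highest at 22138 ± 1366. Gfap, Slc1a2 and Kcnj10 spread widely within groups. Gfap averaged 2966 ± 589 in its lowest group, HT lithium males, and 4248 ± 1316 in its highest, WT vehicle females. Slc1a2 averaged 79738 ± 10509.8 in HT fluoxetine males and 100809 ± 16463 in WT vehicle males, and Kcnj10 4391 ± 1285 and 5821 ± 1321 in the same groups. The lowest and the highest Slc1a2 value of all 59 libraries, 50817 and 121543, came from the library labelled WT vehicle female replicate 3 and from WT vehicle male replicate 2.

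Under fluoxetine, Aqp4, Slc14a1 and Gja1 fell and Gjb6 rose. The 20 fluoxetine libraries were set against the same 20 vehicle libraries as lithium, so the values of both drugs share their controls. By limma 1 of the 10 genes was higher and 3 were lower, against 6.94% and 6.6% of all tested genes, and their median was -0.10, beside 0.0072 over all genes. Aqp4 had a lowest, median and highest value of 1969.8, 3603 and 4809.9 normalised counts under fluoxetine, against 3407, 4536 and 5248 under vehicle, a change of -0.31 ± 0.065 (SE) (limma, adjusted p = 0.000908). Slc14a1 had 165, 221 and 334 under fluoxetine, against 230.1, 279 and 339 under vehicle, a change of -0.30 ± 0.061 (SE) (limma, adjusted p = 0.000701). In 17 of 20 fluoxetine libraries for Aqp4, and in 18 for Slc14a1, the value was below the vehicle mean of its stratum. Gja1 changed by -0.18 ± 0.041 (SE) (limma, adjusted p = 0.0028), with 5181 ± 571 under fluoxetine and 5834 ± 484 under vehicle. Gjb6 changed by 0.17 ± 0.049 (SE) (limma, adjusted p = 0.0185), with 1483 ± 189 under fluoxetine and 1321 ± 158 under vehicle, and was above the vehicle mean of its stratum in 17 of 20 libraries. Its call was lost when a trend with GC content and exon length was removed (0.14, adjusted p = 0.0587).

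Serpina3n and Slc1a3 were near the threshold under fluoxetine. Serpina3n averaged 218 ± 56.7 under fluoxetine and 185 ± 33.7 under vehicle, with a change of 0.21 ± 0.077 (SE) and a limma adjusted p of 0.0534. It was called by edgeR (adjusted p = 0.0495), by DESeq2 (adjusted p = 0.0378) and, in limma, without WT vehicle male replicate 2 and the library labelled WT vehicle female replicate 3 (0.26, adjusted p = 0.013). Its range, 136 to 389, was the widest of the 3 drug groups. Slc1a3 changed by -0.10 ± 0.041 (SE) (limma, adjusted p = 0.0807), and without the same pair of libraries by -0.12 (adjusted p = 0.0125), and DESeq2 called it on all libraries (-0.11, adjusted p = 0.0465). Aldoc, which rose under lithium, had a change of 0.045 ± 0.037 (SE) under fluoxetine (limma, adjusted p = 0.452; 95% interval -0.027 to 0.12). Kcnj10 changed by -0.18, Slc1a2 by -0.088 and Gfap by -0.010 (limma, adjusted p = 0.0917, 0.392 and 0.968), none of them called.

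In single strata, fluoxetine calls came from HT males, with Serpina3n at 0.53, Aqp4 at -0.50 and Gja1 at -0.30 (limma, adjusted p = 0.0304, 0.0157 and 0.0221). That was 1 gene higher and 2 lower, against 2.58% and 3.16% of all genes. The Aqp4 values were 3547, 4534, 3020, 1970 and 2505 in the fluoxetine libraries, against 3407, 4112, 4816, 4348 and 4588 in the vehicle libraries, so that the groups overlapped. Replicate 4 of the fluoxetine group was the lowest of all 59 libraries for Aqp4 and Kcnj10 and the highest for Serpina3n, at 1970, 2590 and 389. Without it and the pair of WT vehicle libraries none of these calls was made, nor with only the libraries compared, and with the GC and length trend removed Aqp4 alone was called. Slc1a3 was called lower in HT males as well by limma without that pair alone, and by DESeq2 on all libraries. The Serpina3n call was also lost without HT vehicle male replicate 2, 3 or 4, and there was 1 lower call in all strata without HT fluoxetine male replicate 4 or 5 or HT vehicle male replicate 3, against 5 without HT fluoxetine male replicate 2. In WT males Slc14a1 was called at -0.49 (limma, adjusted p = 0.0377), 1 gene of 10 against 0.85% of all genes, with 227, 227, 191, 165 and 209 in fluoxetine libraries, all below the 280, 339, 306, 249 and 259 of vehicle libraries. It was not called without the same pair of WT vehicle libraries. In WT females limma called 0, with 3 at an unadjusted p under 0.05, against 2.85% of all genes, and in HT females 0, with 1 at an unadjusted p under 0.05, against 0% of all genes. edgeR and DESeq2 also called 0 in both. Fluoxetine and vehicle libraries did not overlap for Aqp4 (lower) and Gjb6 (higher) in WT females, against 4.78% of all genes, for Slc14a1 in WT males, against 3.94%, and for 0 genes in HT males and HT females, against 5.96% and 1.07%.

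Lithium and fluoxetine differed in Serpina3n and Aldoc. Compared directly, lithium libraries exceeded fluoxetine libraries by 0.37 ± 0.078 (SE) for Serpina3n (limma, adjusted p = 0.000623) and by 0.15 ± 0.037 (SE) for Aldoc (adjusted p = 0.00326). These were 2 genes higher and 0 lower, against 7.74% and 6.18% of all genes. Serpina3n averaged 278 ± 36.1 under lithium and 218 ± 56.7 under fluoxetine, and Aldoc 19994 ± 2082 under lithium and 18022 ± 1477 under fluoxetine. The Aldoc mean was higher under lithium in HT females, HT males and WT males. In WT females it was lower, 17845 ± 1112 under lithium and 18905 ± 1981 under fluoxetine. For Gjb6 the difference was 0.13 (adjusted p = 0.0639) and for Slc14a1 -0.16 (adjusted p = 0.0676), both just outside the threshold. Gjb6 was called higher with the GC and length trend removed (0.16, adjusted p = 0.0222) and with only the libraries compared (adjusted p = 0.0366). DESeq2 called Slc14a1 lower, edgeR called 0 lower, and 2 of the 8 remaining genes had an unadjusted p under 0.05 in limma. Aqp4 (-0.11; 95% interval -0.24 to 0.016) and Gja1 (-0.037; -0.12 to 0.044), which fell under both drugs, were not called between them.

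For Ash1l genotype and for sex, 0 of the 10 genes were called. Averaged over the 6 combinations of drug and sex, limma, edgeR and DESeq2 called 0 of the 10 genes between HT and WT mice, 2 had an unadjusted limma p under 0.05, and 0.358% of all genes were called. Slc1a3 was -0.11 (95% interval -0.18 to -0.043; limma, adjusted p = 0.194) and Aldoc 0.091 (95% interval 0.032 to 0.15; adjusted p = 0.255). Slc1a3 was called lower in HT, at -0.12 with an adjusted p of 0.0251, once WT vehicle male replicate 2 and the library labelled WT vehicle female replicate 3 were left out, and also once only the library labelled WT vehicle female replicate 3 was. Across all 10 genes the 95% intervals stayed between -0.20 and 0.16. Split into the 6 strata, 60 comparisons gave 0 calls in limma on all libraries and 11 at an unadjusted p under 0.05, between -0.36 (Aqp4 in fluoxetine males) and 0.30 (Aqp4 in fluoxetine females). The smallest adjusted p was 0.0769, for Gjb6 in fluoxetine females (-0.31), which DESeq2 called and edgeR did not. Without the same pair of libraries, limma called Slc1a3 lower in HT among fluoxetine males, but not without HT fluoxetine male replicate 4 as well. Over the 6 strata there was 1 lower call without HT fluoxetine female replicate 1 or 2 or HT fluoxetine male replicate 1. There were 2 without HT fluoxetine male replicate 2. Of all genes, 1.95% were called between HT and WT in fluoxetine females, 0.386% in fluoxetine males, 6.2% in vehicle females, and 0.00559% in each of lithium females, lithium males and vehicle males. The vehicle female share rested on single libraries and on the processing: 811 higher and 298 lower genes became 118 and 98 without WT vehicle male replicate 2 and the library labelled WT vehicle female replicate 3, 2 and 2 with the GC and length trend removed, and 0 and 0 with only the libraries compared (limma, 2964 at an unadjusted p under 0.05), and leaving out 1 library gave 20 to 2151 in all.

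Between females and males, averaged over the 6 combinations of drug and genotype, limma called 0 of the 10 genes, with 2 at an unadjusted p under 0.05, against 0.117% of all genes, and edgeR and DESeq2 called 0. Serpina3n had the most negative value, -0.21 ± 0.064 (SE), females over males (limma, adjusted p = 0.189; 95% interval -0.33 to -0.082), and Aqp4 the most positive, 0.13 ± 0.053 (SE) (adjusted p = 0.309). No interaction of fluoxetine with genotype or sex was called, against 0.0392% and 0.425% of all genes. The widest difference was in Serpina3n, -0.32 for females minus males (95% interval -0.62 to -0.015; limma, adjusted p = 0.422). In all, 40 interaction values gave 0 calls in limma, edgeR and DESeq2 and 3 at an unadjusted p under 0.05.

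Other astrocyte genes were read from lists. Of 30 further identity genes, 1 rose and 6 fell under lithium, against 7.39% and 5.74% of all genes, with a median of -0.014, beside 0.0039 over all genes. Cbs, an enzyme of cysteine synthesis, was the one that rose (0.14 ± 0.048, SE; limma, adjusted p = 0.0483). Among those that fell were Ppp1r3c, a glycogen-targeting subunit, at -0.21 ± 0.053 (adjusted p = 0.0057), Atp1b2, a sodium pump subunit, at -0.14 ± 0.040 (adjusted p = 0.0142), the bicarbonate cotransporter gene Slc4a4 at -0.24 ± 0.071 (adjusted p = 0.018) and Id4, a regulator of transcription, at -0.19 ± 0.059 (adjusted p = 0.0236). Under fluoxetine 2 of these 30 rose and 4 fell, against 6.94% and 6.6% of all genes, with a median of -0.053, beside 0.0072. Cbs (0.20 ± 0.047) and the growth factor receptor gene Fgfr3 (0.20 ± 0.052) rose, and Cldn10, S100b, Ppp1r3c and Atp1b2 fell by between -0.17 and -0.12 (limma, adjusted p at most 0.0361). The summed normalised count of the 30 was 190956 to 223642 (median 207367) under lithium, 185980 to 227168 (median 202980) under fluoxetine and 192184 to 234007 (median 211632) under vehicle, ranges that overlap almost wholly. No gene of the 30 was at 0 in all libraries.

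Around the endfoot, the gene for the calcium-permeable channel Trpv4 was the single call among 13 genes of the anchoring complex and its neighbours under lithium, where 7.39% and 5.74% of all genes were higher and lower (0.41 ± 0.13, limma, adjusted p = 0.0326), at 46.4 normalised counts under lithium and 36.6 under vehicle. The median of the 13 was -0.015. Under fluoxetine 2 were higher (Agrn 0.12 ± 0.036, Trpv4 0.40 ± 0.13) and 2 lower (Lama2 -0.16 ± 0.052, Dmd -0.13 ± 0.042; limma, adjusted p between 0.0197 and 0.0347), against 6.94% and 6.6% of all genes, with a median of -0.020. Among 11 other connexin, pannexin and junction genes 0 were higher and 2 lower under each drug, beside the same shares of all genes. Gja5, a connexin of arterial endothelium, changed by -0.42 ± 0.12 under lithium and -0.54 ± 0.12 under fluoxetine (limma, adjusted p = 0.0184 and 0.00186), and Tjp1, a tight junction scaffold, by -0.11 ± 0.032 under lithium and -0.18 ± 0.032 under fluoxetine (adjusted p = 0.0129 and 0.000118). The medians of the 11 were -0.11 under lithium and -0.081 under fluoxetine.

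Of 13 further genes of glutamate uptake and the glutamine cycle, 1 was higher and 3 were lower under lithium, against 7.39% and 5.74% of all genes, with a median of -0.014. Slc1a1, the neuronal glutamate transporter gene, was the one that rose (0.14 ± 0.027, SE; limma, adjusted p = 0.000188), against the fall of the astrocyte transporter gene Slc1a3. Slc7a11, the cystine-glutamate exchanger gene, fell to 1540.3 under lithium, against 1954 under vehicle (-0.34 ± 0.055; adjusted p = 1.9e-05). The glutamine transporter genes Slc38a5 (-0.45 ± 0.094; adjusted p = 0.000691) and Slc38a3 (-0.24 ± 0.074; adjusted p = 0.0235) fell as well. Under fluoxetine 0 were higher and 2 lower, against 6.94% and 6.6% of all genes, Slc7a11 at -0.28 ± 0.054 and Slc38a5 at -0.52 ± 0.092 (limma, adjusted p = 0.000379 and 9.09e-05), with a median of -0.058.

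Reactive-astrocyte genes other than Serpina3n mostly did not pass the test. Of 20 further genes that rise in many forms of astrocyte reactivity, 1 was higher and 1 lower under lithium, near the 7.39% and 5.74% of all genes, with a median of -0.048: Aspg rose by 0.33 ± 0.092 (limma, adjusted p = 0.0106) and Cd44, a hyaluronan receptor gene, fell by 0.25 ± 0.085 (adjusted p = 0.0379). Under fluoxetine Aspg rose by 0.27 ± 0.091, while Nes, an intermediate filament gene, changed by -0.47 ± 0.075 and the cytokine receptor gene Osmr by -0.30 ± 0.065 (adjusted p = 0.0405, 2.11e-05 and 0.00116), with a median of -0.057. Of a set first described in mouse astrocytes after lipopolysaccharide, 12 of 13 genes were tested, and 2 were higher and 1 lower under lithium, beside the same shares (median -0.075). Fkbp5, a co-chaperone of the glucocorticoid receptor, stood at 1268 normalised counts under lithium and 819.5 under vehicle (0.64 ± 0.095; adjusted p = 6.97e-06). H2-T23, a class I histocompatibility gene, rose by 0.28 ± 0.049 (adjusted p = 7.25e-05), and Fbln5, an elastic fibre gene, changed by -0.42 ± 0.060 (adjusted p = 3.48e-06). Under fluoxetine Fkbp5 rose by 0.50 ± 0.093 and Fbln5 changed by -0.37 ± 0.059 (adjusted p = 0.000252 and 1.86e-05), with a median of -0.039. Of a set described after stroke, 10 of 12 genes were tested: limma called 0 under lithium (median 0.041) and 1, Emp1, under fluoxetine (-0.30 ± 0.095; adjusted p = 0.0243; median 0.070). Beside each of these sets, 7.39% and 5.74% of all genes were higher and lower under lithium, and 6.94% and 6.6% under fluoxetine.

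Markers of other cell types were read beside these results. Of 10 endothelial markers, 1 was higher and 6 were lower under lithium, against 7.39% and 5.74% of all genes (median -0.17), and 0 higher and 6 lower under fluoxetine, against 6.94% and 6.6% (median -0.20). Tek changed by -0.34 ± 0.055 under lithium, Cdh5 by -0.26 ± 0.055 and Ly6c1 by 0.16 ± 0.055, and under fluoxetine Flt1 changed by -0.35 ± 0.046 and Emcn by -0.39 ± 0.067 (SE; limma, adjusted p at most 0.0369). The summed endothelial markers were 9318 to 12877 (median 11030.1) under lithium, 9136 to 11738 (median 10458) under fluoxetine and 9936 to 17331 (median 11439) under vehicle. Aqp4 and Slc14a1 also fell under both drugs, and whether the vessel markers had a part in those falls was not tested. Of 10 meningeal fibroblast markers, 0 were higher and 6 lower under lithium (median -0.24; Dcn -0.38 ± 0.11, Ogn -0.39 ± 0.12), with sums of 5200 to 7941 (median 5959) under lithium and 4570 to 10336 (median 7463) under vehicle, and under fluoxetine limma called 0 of them (median -0.083). Of 9 mural markers 0 were higher and 1 lower under lithium (Rgs5 -0.27 ± 0.059), with 1 higher (Pdgfrb) and 1 lower (Rgs5) under fluoxetine. Of 10 microglial markers 1 was higher (C1qb 0.12 ± 0.044) and 2 lower (P2ry12 -0.38 ± 0.067, Cx3cr1 -0.16 ± 0.054) under lithium, and P2ry12 was lower under fluoxetine (-0.21 ± 0.066). Beside the fibroblast, mural and microglial counts, the shares of all genes were again 7.39% and 5.74% under lithium and 6.94% and 6.6% under fluoxetine.

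Neuronal (10), oligodendrocyte (10), striatal (10) and ependymal or choroid plexus markers (7 of 9 tested) gave 0 calls in limma for either drug, and oligodendrocyte precursor markers (8) gave 0 under lithium and 1 in each direction under fluoxetine. Of all genes, 7.39% and 5.74% were higher and lower under lithium, and 6.94% and 6.6% under fluoxetine. At least 1 library stood far above its group: the ependymal and choroid sum was 198 to 727 (median 282) under lithium, 180.4 to 1116 (median 388) under fluoxetine and 226 to 8108 (median 309) under vehicle, and the striatal sum reached 28598 under lithium, 26017 under fluoxetine and 18742 under vehicle, over medians of 10842, 10654 and 9892. The oligodendrocyte sum was 70137 to 222854 (median 117153) under lithium and 69469.7 to 288689 (median 133718) under vehicle. Their part in the values of the 10 genes was not tested.

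The genes also varied together between libraries of the same group. With each group mean subtracted, all 45 pairs were correlated over the 59 libraries, which share their depth and dissection across genes, and tested with 100000 permutations within groups. Of these, 11 positive pairs and 1 negative pair had a Pearson p adjusted over the 45 under 0.05, the median r was 0.13, and 10 of the 12 remained when the 2 libraries farthest from the median of the pair's leading gene were left out. Aqp4, Gja1 and Slc14a1, which fell together under lithium, were tied most closely. Gja1 and Slc14a1 had r = 0.77, rho = 0.74 (raw p = 1e-05, the smallest the permutations can give, adjusted p = 0.00015 for r, and 0.00015 for rho), and r = 0.70 without the 2 farthest libraries. Aqp4 and Gja1 had r = 0.72, rho = 0.70 (raw p = 1e-05, adjusted p = 0.00015 for r and 0.00015 for rho), and r = 0.66 without the 2 farthest. Aqp4 and Slc14a1 had r = 0.61, rho = 0.54 (permutation p = 0.00018 raw and 0.00202 adjusted for r, 0.00033 raw and 0.00297 adjusted for rho), and r = 0.54 without the 2 farthest.

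The pair with a negative correlation was Gfap and Slc1a2, at r = -0.70, rho = -0.67 (permutation p = 1e-05 raw and 0.00015 adjusted for r, 1e-05 raw and 0.00015 adjusted for rho). It stayed at r = -0.67 without the 2 farthest libraries and -0.64 without the 3 libraries that stand apart. On all libraries Gfap had r = 0.33 with Aqp4 and 0.28 with Gja1 (adjusted permutation p = 0.102 and 0.167). With Aqp4 this was 0.37 without the 2 farthest libraries (adjusted permutation p = 0.0367). With the GC and length trend removed the values were 0.46 and 0.48 (adjusted permutation p = 0.0111 and 0.0101), both then called. Without those 3 libraries they were 0.58 and 0.45, with no test. Slc1a2 and Slc1a3, both glutamate transporter genes, had r = 0.57, rho = 0.37 (permutation p = 0.00123 raw and 0.00791 adjusted for r, 0.0108 raw and 0.0488 adjusted for rho), but r was 0.28 without those 3 libraries, so it rested in part on them. The connexin genes were not among the correlated pairs (r = 0.23, adjusted permutation p = 0.245). Gjb6 went instead with Slc1a2 (r = 0.36, rho = 0.45; permutation p = 0.00396 raw and 0.0178 adjusted for r, 0.00116 raw and 0.00746 adjusted for rho) and with Aldoc (r = 0.44, rho = 0.35; 0.0024 raw and 0.012 adjusted for r, 0.0153 raw and 0.0625 adjusted for rho). The tie of Gjb6 with Aldoc was lost without the 2 farthest libraries (r = 0.35) and by rho, while that with Slc1a2 had r = 0.37 without the 2 farthest. Serpina3n was in none of the 12 pairs.

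**Figure D5:**
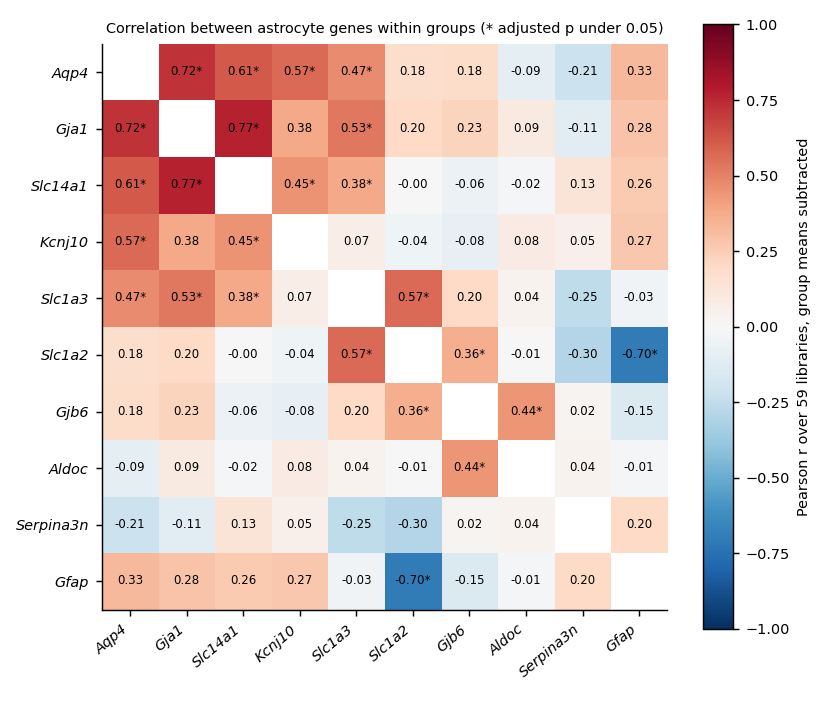
Pearson r between each pair of the 10 genes over 59 libraries after subtraction of group means; red is positive, blue negative, and an asterisk marks a permutation p adjusted over 45 pairs under 0.05. Aqp4, Gja1 and Slc14a1 form the block of r = 0.61 to 0.77 at the upper left, and Gfap and Slc1a2 (r = -0.70) are the one blue pair with an asterisk.

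Outside the 10 genes, the transcripts most like each in this within-group variation over 59 libraries were listed as a description, with no test, and the points share library depth and dissection. For Aqp4 they were Wwtr1 (r = 0.82) and Slc7a2 (r = 0.78), for Gja1 Slc7a2 (r = 0.73) and Hsdl2 (r = 0.70), and for Slc14a1 Hsdl2 (r = 0.78) and Arfip1 (r = 0.67), so Slc7a2 and Hsdl2 each appeared for a pair of them. For Gfap they were Dbi (r = 0.88) and Vim (r = 0.86), Vim being the intermediate filament gene commonly coexpressed with it. Slc1a2 was closest to Gpm6b (r = 0.90) and Dlg2 (r = 0.88), and Slc1a3 to Luzp2 (r = 0.70) and Amer2 (r = 0.67). Aldoc was closest to Tmem214 (r = 0.66) and Aldh1l1 (r = 0.65), where Aldh1l1 is an astrocyte identity gene. Gjb6 was closest to Sgms1 (r = 0.69) and Smim3 (r = 0.64), and Kcnj10 to Scd2 (r = 0.75) and Elovl5 (r = 0.73). Serpina3n had the weakest neighbours, Med12 (r = 0.58) and Pik3ip1 (r = 0.56).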

How the data were processed

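Messenger RNA from 59 prefrontal cortex samples was sequenced from TruSeq Stranded mRNA libraries, per the labels' protocols. The authors deposited 1 table of 18088 genes with a normalised count signal for each library, that is, reads divided by a size factor of the library. The submitters' processing notes name the build GRCm38, DESeq2 1.19.11, Salmon 0.11.2 and R 3.6.0, without saying what each did. Whole reads were recovered from the low values of every library (100% of values within 0.01 of a whole number), giving 24470332 to 36323070 reads per library. Size factors correct for depth only, so a change in composition or dissection would move many genes together.

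Values were tested as log2(normalised count + 1) with limma 3.58.1 in R 4.3.3, with mean-variance trend and robust variances, 12 group means and contrasts, on genes with at least 10 normalised counts in at least 5 libraries (213 left out). P-values were adjusted over all genes per contrast and called under 0.05. The table held normalised values, so a count model was not used as the main test. The alternatives were TMM scaling, edgeR 4.0.16 and DESeq2 1.42.0 on recovered reads, a pseudocount of 10, no filter, the replicate number as a block, removal of a GC and length trend, only the libraries compared, and libraries left out. Of the tests, limma on the lithium average alone was run on simulated data, with independent genes and libraries. The other contrasts, edgeR, DESeq2 and the permutations were not checked in this way. Taken by title number, same-numbered libraries of different groups did not vary together on average (mean residual r = -0.011, 319 pairs). Differently numbered libraries had a mean of 0.0028. Such a mean cannot exclude a shared litter, cage or batch. The library name of HT lithium female replicate 4 carries another number than its title, and the title number was used here and for the block.

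Symbols (18077 found) and gene bounds came from GENCODE M21, and promoters from RefSeq. The 10 genes, the gene lists and the tests were chosen with earlier results of these data known. Named genes of other lists are up to 4 higher and 4 lower with the smallest p among those called under lithium, fluoxetine or genotype, and the 2 most correlated genes per member.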

Additional observations from a re-analysis of the deposited data

Results flagged for a closer look

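In each of the 12 groups, the highest and lowest library of each of the 10 genes was compared with its neighbour by Dixon's criterion at the 95% level, 120 sets in all, and 5 were marked. Chance marks about 1 in 20 such groups. In HT lithium females, Aqp4 was 2995 normalised counts in replicate 3, with the others at 3508 to 3535. In WT fluoxetine males, Gfap was 2527 in replicate 2 (others 3496 to 3755) and Slc1a3 was 22246 in replicate 3 (others 20099 to 20435). In HT fluoxetine females, Slc1a2 was 69406 in replicate 5, with the others at 84337 to 88858. In WT vehicle females, Kcnj10 was 7041 in the library labelled replicate 3, whose Ash1l level was on the HT side, with the others at 5126 to 5522.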

How the results depend on the processing

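The lithium averages kept 3 higher and 4 lower genes under all 10 alternatives and without any single library. With the replicate number as a block the counts were 3 and 4 for lithium, 1 and 3 for fluoxetine, and 4 and 3 over the lithium strata, and no call of an average changed. Other counts moved. For the fluoxetine average, 1 higher became 0 with the GC and length trend removed and 2 with edgeR, DESeq2, without WT vehicle female 3 and WT vehicle male 2, and without these and HT fluoxetine male 4 (a set chosen after seeing the data). The last set and DESeq2 gave 1 lower gene between lithium and fluoxetine, where 2 higher became 3 with the trend removed or only the libraries compared. Leaving out those 2 or 3 libraries gave 1 lower gene between HT and WT, and leaving out the 2, or DESeq2, gave 1 in the HT against WT strata. Over the lithium strata, 5 higher calls became 2 with the trend removed, 2 with only the libraries compared and 8 with DESeq2, while 3 lower became 5 without the 2 libraries, 6 without the 3 and 7 with DESeq2. Over the fluoxetine strata, 1 higher call became 0 with the trend removed, and 1 higher and 3 lower became 0 without the 3 libraries or with only the libraries compared. The causes were not tested.

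Leaving out single libraries gave 1 to 2 higher and 3 to 5 lower genes for the fluoxetine average, 0 to 1 lower for lithium against fluoxetine and for HT against WT, 2 to 7 higher and 0 to 5 lower over the lithium strata, 0 to 1 higher and 1 to 5 lower over the fluoxetine strata, and 0 to 2 lower in the HT against WT strata. Signs turned for uncalled log2 values near 0. Gfap ran from -0.063 to 0.034 under fluoxetine and from -0.052 to 0.013 for HT against WT, Serpina3n from -0.046 to 0.0060 and Kcnj10 from -0.027 to 0.025. For HT against WT, Serpina3n was 0.013 without the 2 libraries, and Kcnj10 was 0.025 without the 2, 0.054 without the 3, 0.0062 with edgeR and 0.0071 with DESeq2. TMM scaling shifted the log2 values of single libraries by -0.041 to 0.002. Of the 12 correlated pairs, 10 had an adjusted p under 0.05 without the 2 farthest libraries, 10 by rho and 9 with the trend removed. With 4 or 5 libraries a group, the SE of a lithium change of Serpina3n within 1 genotype and sex was 0.154 to 0.164, which limits what could be called there.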
